A study of Mus musculus with 18 samples.

Results

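A set of 10 genes of colon macrophages and monocytes were followed in the inflamed distal colon of Il10-deficient mice. The genes Cd68, Adgre1, Csf1r, Mrc1, C1qa, C1qb, C1qc, Cx3cr1, Ly6c2 and Ccr2 were chosen by symbol as markers of resident macrophages and incoming monocytes. All 10 of 10 were among the 16321 genes of the deposited gene table. RNA-seq of poly(A) RNA was made from pieces of distal colon of BALB/c mice, with 18 libraries in 6 groups of 3 mice. One group was BALB/c wild type (WT) at 6 weeks of age, and 5 groups were Il10 knockout (Il10KO) mice at 6, 8, 10, 12 and 14 weeks of age, with no treatment named in the labels. WT mice were collected at week 6 only, so age and colitis cannot be told apart at later weeks. All 3 WT mice came from a cage of their own, which means that genotype and cage cannot be told apart either. The deleted gene, Il10, an anti-inflammatory cytokine, had 1, 0 and 3 estimated counts in the WT libraries and 0 in each of the 15 Il10KO libraries, too few to check the labels.

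Macrophages of the gut wall are continually replenished by blood monocytes, which enter with Ly6C and the chemokine receptor CCR2 on their surface and, in the healthy mucosa, lose both as they mature. Mature cells carry F4/80 (Adgre1), the CSF1 receptor, the mannose receptor CD206 (Mrc1) and CX3CR1, and make complement C1q. Interleukin 10 signalling to macrophages is needed for this maturation to a quiet state, and mice that lack Il10 develop colitis.

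In outline, Ly6c2 and Ccr2 rose at weeks 10 and 14, whereas Csf1r, Adgre1 and Cx3cr1 were lower on average from week 10 on without passing the test, and the 3 C1q genes were higher on average at weeks 10, 12 and 14 in TMM-scaled counts but, at week 14, lower in TPM. None of the 8 other members passed the test at any age. In bulk tissue, fewer cells of a type and less RNA per cell cannot be told apart. Levels are given as CPM, counts scaled to a common library size with TMM factors, and for comparing genes as TPM, which also divides by transcript length. Fold changes, as log2 with a standard error, and adjusted p-values come from edgeR's quasi-likelihood test over 16300 genes, with Benjamini-Hochberg adjustment and a threshold of 0.05.

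Totals ran from 26495521 to 35497101 estimated counts per library. The RNA integrity number (RIN, highest for intact RNA) was 6.5 and 5.8 in week 14 replicates 2 and 3 and 8.4 to 9.3 in the other 16 libraries. In CPM, 7 of the 10 members (Csf1r, Cx3cr1, the 3 C1q genes, Ly6c2 and Ccr2) were split at week 14. Replicate 1 stood apart from replicates 2 and 3 there and lay near the week 6 Il10KO values. Its lipocalin, an inflammation marker, was labelled at 2044 ng/g, against 2.27 to 4.72 ng/g in week 6 Il10KO mice. In CPM, week 14 thus holds 1 library of higher RIN with low Ly6c2 and Ccr2 and 2 libraries of lower RIN with high ones. The split was smaller in TPM, at 12.7, 14.6 and 26.2 for Ly6c2 and 4.623, 5.995 and 6.473 for Ccr2 in replicates 1, 2 and 3. In TPM the 3 C1q genes were highest in replicate 1, with C1qc at 49.4 against 27.5 and 34.4. Week 8 replicate 3 was the lowest of its group in 9 of the 10 members and the highest in Ly6c2.

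At week 6, Il10KO and WT colon did not differ in any member by the test, and 0% of all genes passed in the higher and 0% in the lower direction. The per-length levels gave the order of the members. In WT colon C1qa was the most abundant member at 102 ± 26.7 TPM (SD, n = 3), followed by C1qb at 61.1 ± 22.0 and C1qc at 52.5 ± 18.4, which did not differ beyond their spread. Csf1r stood at 26.0 ± 7.47 TPM and Cd68, a lysosomal glycoprotein of all macrophages, at 19.7 ± 12.4, again within their spread. Cx3cr1, Adgre1 and Mrc1 followed at 9.74 ± 3.03, 6.90 ± 2.66 and 5.71 ± 1.86 TPM, where neighbours overlapped. Ccr2 and Ly6c2 were last at 3.00 ± 1.03 and 2.80 ± 1.56 TPM. In Il10KO colon at week 6 the first 6 places were the same, and Ly6c2 stood seventh at 9.27 ± 2.77 TPM. By week 10 Ly6c2 was second at 77.3 ± 23.8 TPM, within the spread of C1qa at 80.1 ± 26.7 and C1qb at 70.4 ± 17.2.

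**Figure D1:**
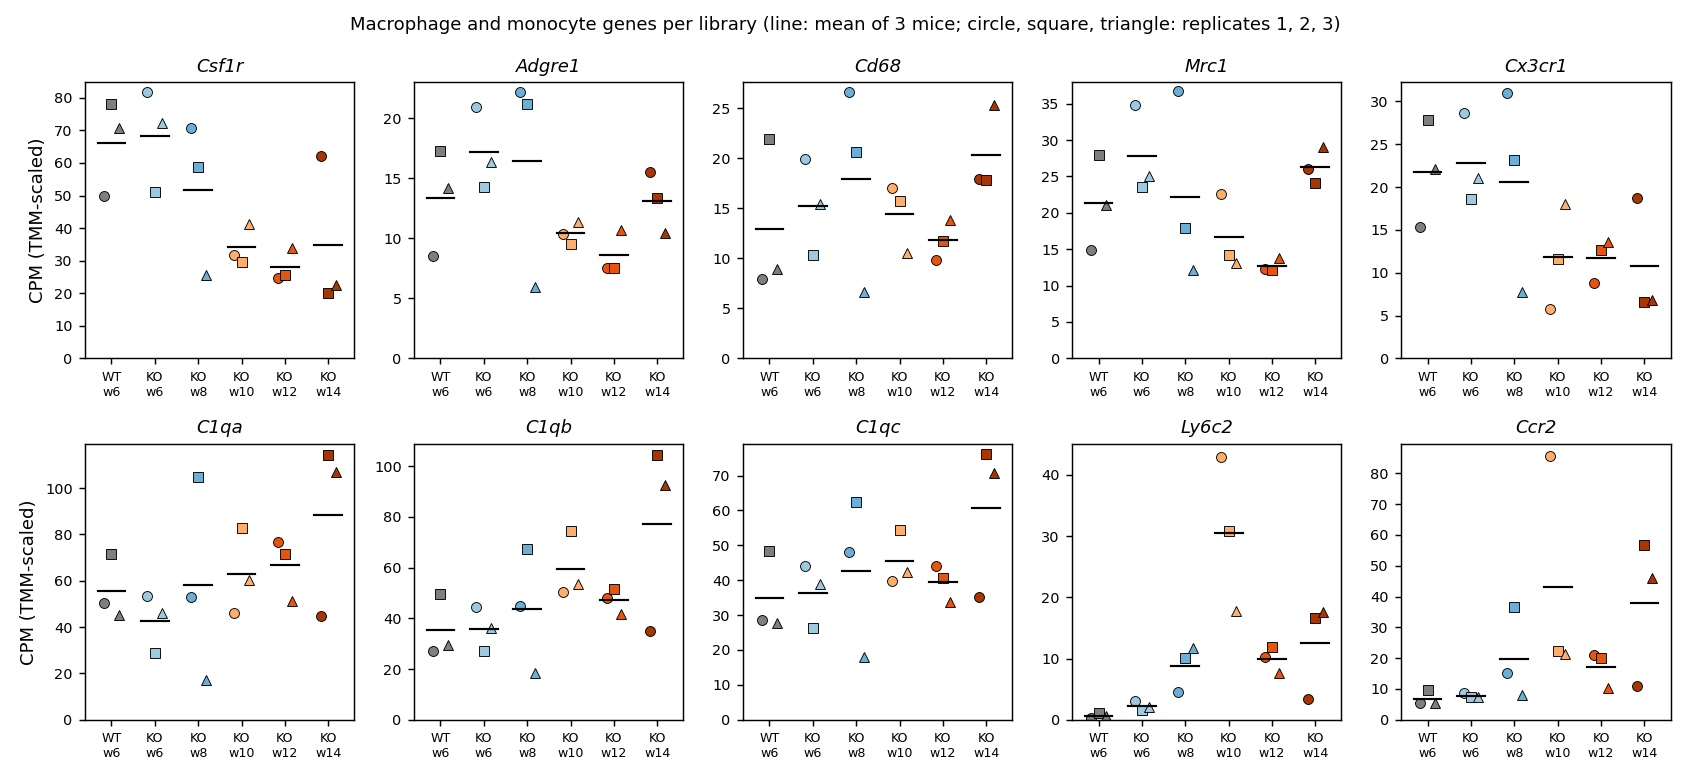
CPM of each of the 10 genes (vertical axes, linear from 0) in every library of the 6 groups (horizontal axes), with the group mean as a line. Ly6c2 and Ccr2 are high at week 10 and in 2 of the 3 week 14 libraries, while Csf1r at weeks 10 and 12 lies below all week 6 Il10KO libraries.

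Ly6c2 encodes one of the 2 proteins recognised as Ly6C, the GPI-anchored surface marker of classical monocytes, and lies at chr15:75108158-75111970 on the minus strand (mm10, GENCODE M21). Its neighbour Ly6c1, at chr15:75044018-75048830, encodes the other and is also made by blood endothelium. The coding sequences of their most counted complete transcripts are both 396 bases long and identical at 387 of them, 97.73%, with an identical run of 188 bases. The 90 coding bases from the start codon, which hold 6 of the 9 differences, show how few letters separate the 2 genes; capitals mark the bases that differ.
Ly6c1: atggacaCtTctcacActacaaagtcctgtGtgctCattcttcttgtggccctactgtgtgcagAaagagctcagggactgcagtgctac
Ly6c2: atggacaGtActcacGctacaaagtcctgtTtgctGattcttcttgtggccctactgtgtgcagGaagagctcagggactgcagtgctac
Of the distinct 31-base words in Ly6c2 transcripts, 76.23% were in no other gene, and in its 3 coding transcripts 39.97% to 50.76% were absent from Ly6c1. The split of reads between the 2 genes by kallisto is therefore uncertain, and Ly6c1 is given beside the main results for Ly6c2.

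Ly6c2 stood at 0.300, 1.09 and 0.665 CPM in the WT libraries and at 3.12, 1.68 and 2.04 CPM in the Il10KO libraries of week 6. The 3 Il10KO values lay above the 3 WT values. The log2 fold change was 1.72 ± 0.60, with an adjusted p of 1 by edgeR (unadjusted p = 0.0113), so it did not pass. Ly6c1 stood at 13.8, 21.7 and 14.0 CPM in WT and 20.2, 17.9 and 17.9 CPM in Il10KO, and the groups overlapped.

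Ly6c2 differed across the ages and was highest at week 10. It was at 4.54, 10.1 and 11.8 CPM at week 8, at 43.0, 30.9 and 17.7 at week 10, at 10.3, 11.9 and 7.65 at week 12, and at 3.42, 16.6 and 17.7 at week 14. Every library from week 8 on lay above all 3 week 6 Il10KO libraries, and week 14 replicate 1, at 3.42 CPM, lay just above the highest of them. The gene rose at week 10 by 3.74 ± 0.61 (log2, 13.4-fold, adjusted p = 0.00315 by edgeR) and at week 14 by 2.46 ± 0.59 (5.48-fold, adjusted p = 0.00771). At weeks 8 and 12 the log2 fold changes were 1.95 ± 0.58 and 2.12 ± 0.58, with adjusted p of 0.291 and 0.0714, and did not pass. The weeks share the same 3 week 6 libraries.

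Ly6c1 moved in the same direction and was far more abundant. It stood at 670, 663 and 507 CPM at week 10, and at 34.5, 630 and 612 CPM at week 14. At week 8 it was at 47.6, 193 and 325 CPM, a log2 fold change of 3.34 ± 0.80 that did not pass (adjusted p = 0.153 by edgeR). It rose by 5.04 ± 0.87 at week 10 (adjusted p = 0.00352 by edgeR), by 3.64 ± 0.81 at week 12 (0.0402) and by 4.51 ± 0.85 at week 14 (0.00617). Within each library Ly6c2 had 0.0935 to 0.155 counts per Ly6c1 count at week 6 in Il10KO mice and 0.0350 to 0.0641 at week 10. WT colon had 0.0217 to 0.0504, about the week 10 range, so the lower ratio at week 10 holds against Il10KO week 6 only. With the counts of both summed as 1 gene, the log2 fold change was 4.94 ± 0.85 at week 10, 3.53 ± 0.80 at week 12 and 4.39 ± 0.83 at week 14, and all 3 passed (adjusted p = 0.00351, 0.0402 and 0.00616). Ly6c1 was the riser among 6 blood endothelium genes in each of these weeks, and 3 of the 6 fell at week 10 and 4 at week 14.

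Ccr2, the receptor for the chemokine CCL2 by which monocytes leave the bone marrow and enter tissue, lies at chr9:124101950-124113557 on the plus strand. Ccr2 stood at 5.45, 9.52 and 5.56 CPM in WT and 8.60, 7.43 and 7.49 CPM in Il10KO colon at week 6, which overlapped. It was at 15.1, 36.5 and 8.03 CPM at week 8, at 85.6, 22.5 and 21.2 at week 10, at 21.1, 20.1 and 10.3 at week 12, and at 10.8, 56.8 and 45.9 at week 14. Week 10 replicate 1 was the highest library by far, and all libraries of weeks 10, 12 and 14 lay above week 6, although week 12 overlapped with it in TPM.

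Ccr2 rose by 2.46 ± 0.67 at week 10 (log2, 5.49-fold, adjusted p = 0.0225 by edgeR) and by 2.27 ± 0.67 at week 14 (4.82-fold, adjusted p = 0.0205). Without week 10 replicate 1 the week 10 value was 1.48 ± 0.61 with an adjusted p of 0.140, and it no longer passed, whereas Ly6c2 was at 3.41 ± 0.63 (0.00889). Ccr2 also no longer passed at either age without any 1 of the Il10KO week 6 libraries or with limma on log2 TPM, nor at week 14 by library size alone or without replicate 2 or 3 of that week. Weeks 8 and 12 gave 1.34 ± 0.65 and 1.13 ± 0.65 (adjusted p = 0.706 and 0.217). Week 10 replicate 1 also had the highest sum of 9 neutrophil genes at that age, 6339 CPM against 1553 and 1378 in replicates 2 and 3, and week 14 replicates 2 and 3 had 17120 and 12050 CPM against 563 in replicate 1. The part of neutrophil RNA in the Ccr2 result was not tested.

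Read against all genes, 2 of 10 members rose at week 10, when 14.6% of genes tested were called higher, and none fell, when 9.48% were called lower. At week 14 the same count, 2 of 10, stood against 24.5% higher and 0 of 10 against 8.56% lower. These shares of members are near the background. At week 12, 0 of 10 passed against 1.36% of genes higher and 0.491% lower, and at week 8, 0 of 10 against 0.0675% and 0%. DESeq2 called 3 members at week 12 (Ly6c2 higher, Csf1r and Mrc1 lower), among 2507 of 16321 genes, and 1 at week 8 (Ly6c2), among 226. In edgeR 4 and 1 members had an unadjusted p below 0.05 there. In the test of any difference across the 5 ages, Ly6c2 alone passed (adjusted p = 0.0155 by edgeR, where 27.4% of genes were called), with Ccr2 at 0.0544, Mrc1 at 0.0820 and Csf1r at 0.0935. DESeq2 called these 4 genes and limma on log2(TPM + 1) called Csf1r and Ly6c2. At week 14 DESeq2 called C1qb higher besides Ly6c2 and Ccr2.

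**Figure D2:**
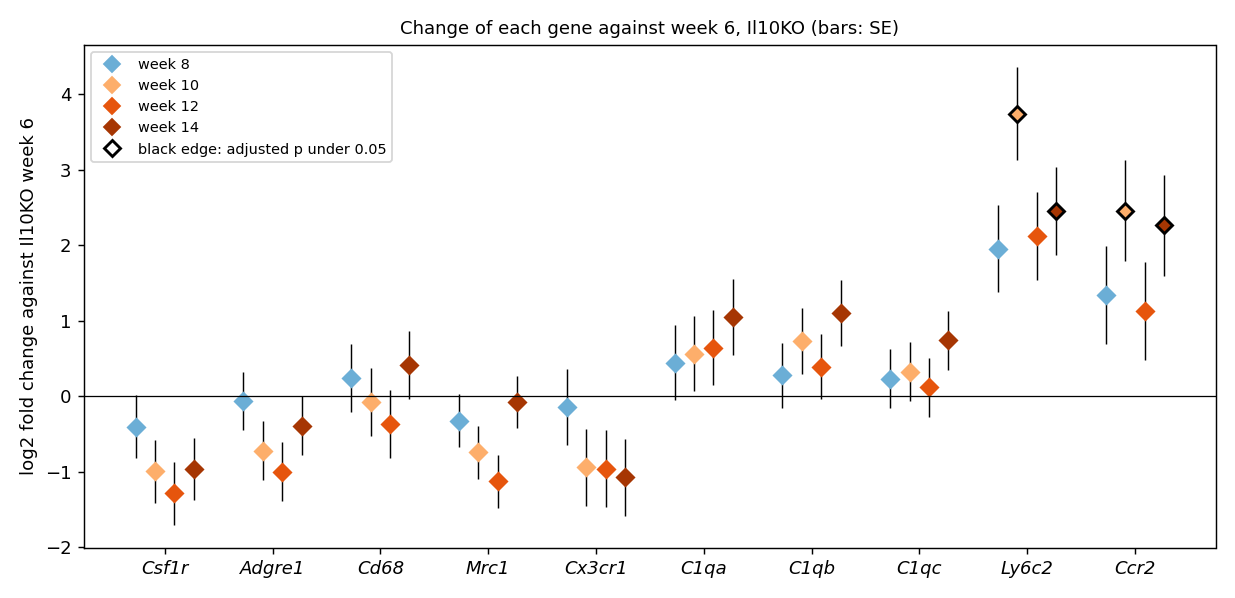
Log2 fold change of each gene (horizontal axis) at weeks 8, 10, 12 and 14 against the same 3 Il10KO week 6 libraries (vertical axis, bars are SE). Black edges mark the 4 values with an adjusted p under 0.05, which are Ly6c2 and Ccr2 at weeks 10 and 14.

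The week 14 rises of both genes rested on replicates 2 and 3. Without these 2 libraries of lower RIN, week 14 was replicate 1 alone, assumed in the fit to vary like the other groups, and the log2 fold change was 0.58 ± 0.60 for Ly6c2 and 0.46 ± 0.77 for Ccr2 (adjusted p = 1 for both), and 0.88 ± 0.64 for Ly6c1 (1). With RIN as a covariate the values were 0.85 ± 0.57 and 0.43 ± 0.60 (adjusted p = 0.959 for both), and Ly6c1 was at 1.66 ± 0.80 (0.959). RIN and the high monocyte genes came in the same 2 mice, so they cannot be told apart. The week 10 libraries had RINs of 8.5 to 9.0, and with RIN as a covariate Ly6c2 at week 10 was 3.59 ± 0.46 (0.000117).

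Cage was shared by mice of different ages. Cages B, C and F held week 10 mice. Within cage B, Ly6c2 was at 1.68, 4.54, 43.0 and 11.9 CPM at weeks 6, 8, 10 and 12, and within cage C at 10.1, 30.9 and 16.6 CPM at weeks 8, 10 and 14. Within cage F it was at 2.04 CPM at week 6 and 17.7 at week 10, and within cage A at 3.12, 10.3 and 3.42 CPM at weeks 6, 12 and 14. For Ly6c2 week 10 was the highest in each of the 3 cages that held it, and Ly6c1 likewise, at 670, 663 and 507 CPM. Ccr2 did not follow in cage C, where it was at 36.5, 22.5 and 56.8 CPM at weeks 8, 10 and 14. With cage as a factor over the 15 Il10KO libraries Ly6c2 was 3.40 ± 0.69 at week 10 and Ccr2 2.10 ± 0.81, but neither passed (adjusted p = 0.110 and 0.240), nor did Ly6c1 at 4.59 ± 1.03 (0.120). Cage D held 1 library and added nothing to that fit.

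Between successive ages no member passed. From week 8 to 10 the log2 fold change of Ly6c2 was 1.79 ± 0.56 (adjusted p = 0.142 by edgeR, all week 10 libraries above week 8), when 0.117% of genes were called higher and 0.0798% lower. From week 10 to 12 Ly6c2 was at -1.62 ± 0.56 and Ccr2 at -1.33 ± 0.65 (adjusted p = 0.191 and 0.360), with all week 12 libraries below all week 10 libraries for both, when 0.209% of genes were called higher and 0.239% lower. From week 12 to 14 Mrc1 had the smallest p of the members, at 1.05 ± 0.35 (adjusted p = 0.242), when 0% of genes were called higher and 0.00613% lower. Each of these 3 steps had 1 member with an unadjusted p below 0.05, and DESeq2 called 1 member, Ly6c2, from week 8 to 10 and none in the other steps.

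Csf1r encodes the receptor for CSF1 and IL-34, on which most tissue macrophages depend for survival, and lies at chr18:61100598-61132149 on the plus strand. It stood at 49.8, 78.0 and 70.7 CPM in WT and 81.7, 51.0 and 72.2 CPM in Il10KO colon at week 6, which overlapped. It was at 70.6, 58.9 and 25.6 CPM at week 8, at 31.8, 29.7 and 41.3 at week 10, at 24.6, 25.5 and 34.0 at week 12, and at 62.2, 20.0 and 22.5 at week 14. All libraries of weeks 10 and 12 lay below all of week 6. At week 14, replicate 1 stayed within the week 6 range and the other two were among the lowest of the series.

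The log2 fold change of Csf1r was -0.996 ± 0.42 at week 10, -1.28 ± 0.42 at week 12 and -0.97 ± 0.42 at week 14, with adjusted p of 0.0828, 0.0927 and 0.0754 by edgeR, and did not pass. Without week 14 replicate 1 the standard errors were smaller, and the values were -0.996 ± 0.30 (0.0136), -1.29 ± 0.31 (0.00628) and -1.68 ± 0.36 (0.000688), all past the threshold, as were 8268, 6572 and 11335 of 16321 genes at the 3 ages. Without the 2 libraries of lower RIN, weeks 10 and 12 also passed (adjusted p = 0.0159 and 0.00807), and week 14 was at -0.14 ± 0.46.

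In the transcript tables the Csf1r counts of week 14 replicates 2 and 3 sat on another transcript than elsewhere. All of their 321.4 and 434.5 counts were assigned to a transcript of 4701 bases, which held 1.501% to 22.1% of the gene's counts in the other 16 libraries, and the usual transcript of 3870 bases had 0. The 4701-base transcript has a longer last exon, up to position 61132149, and this overlaps Hmgxb3, a gene on the opposite strand. Of the 31-base words of Csf1r 85.05% were in no other gene, and the gene that shared most of them was Hmgxb3. Reads of the 2 genes there can be told apart only by strand, which the sources used here do not give, so Csf1r in these 2 libraries is uncertain.

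Mrc1 and Cx3cr1 also had counts on other transcripts than usual in these libraries. For Mrc1 a retained-intron transcript of 2069 bases near the 3′ end held 54.9% and 49.3% of the counts in week 14 replicates 2 and 3, against 0% to 7.24% in the other 16. For Cx3cr1 a transcript of 3753 bases (ENSMUST00000064165.4) held 100% and 95.7% there, 88.4% in week 10 replicate 1 and 59.0% in week 10 replicate 2, against 33.2% at most in WT. The 2 week 10 libraries had RINs of 8.5 and 8.7. At week 12 this Cx3cr1 transcript held 127, 169 and 76.7 of the 306, 348 and 428 counts in replicates 1, 2 and 3. The part of RNA integrity in the levels of these genes was not tested.

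**Figure D3:**
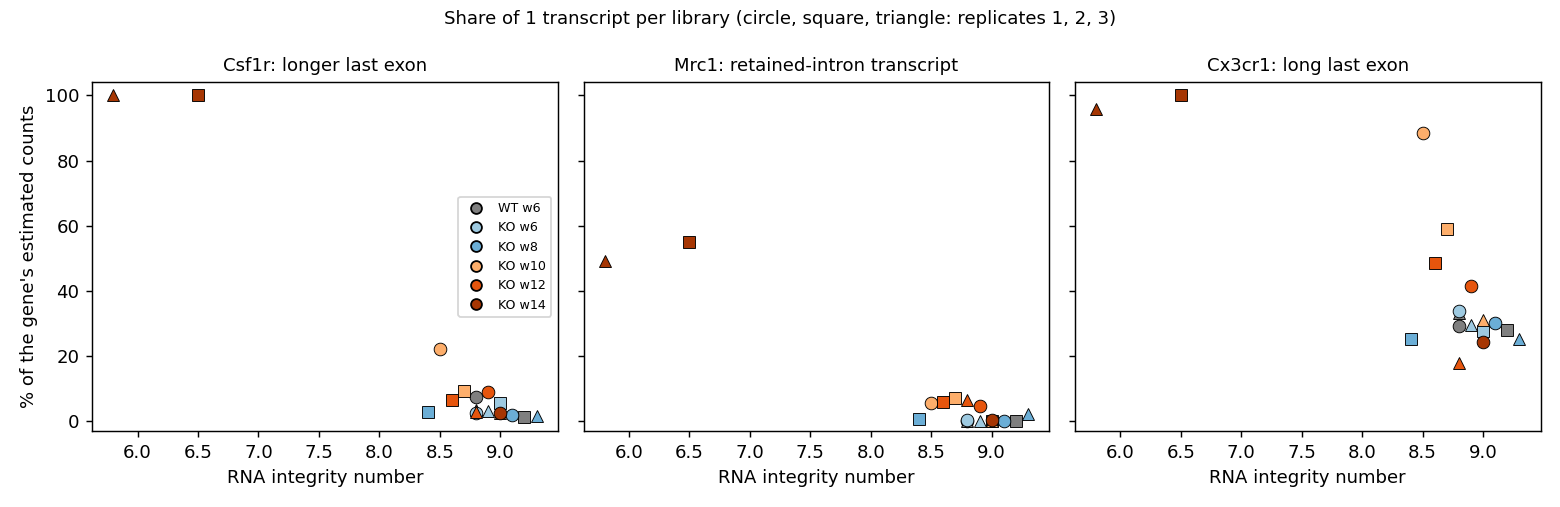
Share of a gene's estimated counts on 1 of its transcripts (vertical axes, percent) against the RIN of the library (horizontal axes) for Csf1r, Mrc1 and Cx3cr1, 1 point per library. Both low-RIN libraries, of week 14, lie at 100% for Csf1r, and for Mrc1 the one at RIN 6.5 lies at 54.9% and the one at RIN 5.8 at 49.3%.

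Adgre1 encodes F4/80, an adhesion G protein-coupled receptor that marks mature mouse macrophages, and lies at chr17:57358691-57483527 on the plus strand. It was at 21.0, 14.2 and 16.4 CPM in Il10KO colon at week 6, at 10.4, 9.52 and 11.3 at week 10, at 7.53, 7.56 and 10.7 at week 12, and at 15.5, 13.3 and 10.4 at week 14. Weeks 10 and 12 lay wholly below week 6 and week 14 overlapped with it. The log2 fold changes were -0.72 ± 0.39, -0.9995 ± 0.39 and -0.39 ± 0.39 (adjusted p = 0.157, 0.118 and 0.407 by edgeR). WT colon had 8.51, 17.3 and 14.2 CPM and week 8 had 22.2, 21.2 and 5.96 CPM, both overlapping with week 6.

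Cx3cr1, the receptor for the membrane-bound chemokine fractalkine, marks the macrophages that line the gut epithelium and lies on chr9:119901616-120069879, minus strand. It stood at 28.6, 18.6 and 21.1 CPM in Il10KO colon at week 6, at 5.80, 11.6 and 18.1 at week 10, at 8.77, 12.7 and 13.6 at week 12, and at 18.7, 6.62 and 6.86 at week 14. Weeks 10 and 12 lay below week 6 without overlap, and week 14 replicate 1 touched its range. The log2 fold changes were -0.94 ± 0.51, -0.96 ± 0.51 and -1.08 ± 0.51, and none passed (adjusted p = 0.160, 0.192 and 0.0989 by edgeR). Without week 14 replicate 1 the week 14 value was -1.76 ± 0.52 and passed (0.00734). WT and week 8 colon, at 15.3, 27.9 and 22.1 and at 30.96, 23.2 and 7.70 CPM, overlapped with week 6.

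Mrc1, an endocytic receptor for mannose-bearing glycoproteins, lies at chr2:14229392-14332057 on the plus strand. It was at 34.8, 23.6 and 25.1 CPM in Il10KO colon at week 6, at 22.6, 14.3 and 13.1 at week 10, at 12.3, 12.1 and 13.8 at week 12, and at 26.0, 24.0 and 29.0 at week 14. Weeks 10 and 12 lay below week 6 and week 14 was within its range. The log2 fold changes were -0.74 ± 0.35, -1.13 ± 0.35 and -0.08 ± 0.35 (adjusted p = 0.114, 0.0878 and 0.860 by edgeR). Without week 14 replicate 1 the week 12 value passed (-1.13 ± 0.35, 0.0191). The week 14 level of replicates 2 and 3 includes the retained-intron counts given above.

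Cd68, at chr11:69664213-69666153 on the minus strand, did not pass the test at any age. It was at 19.9, 10.4 and 15.5 CPM in Il10KO colon at week 6, 26.6, 20.7 and 6.66 (week 8), and 17.02, 15.7 and 10.6 (week 10). Later it was at 9.83, 11.8 and 13.9 CPM (week 12) and 17.97, 17.85 and 25.4 CPM (week 14). WT colon had 7.97, 21.9 and 8.96 CPM. Each group overlapped with week 6 in CPM, and in TPM week 12 lay below it. The log2 fold changes against week 6 lay between -0.37 ± 0.45 at week 12 and 0.42 ± 0.45 at week 14 (adjusted p = 0.551 and 0.449 by edgeR).

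C1qa, C1qb and C1qc encode the 3 chains of C1q, the recognition molecule of the classical complement pathway, which tissue macrophages supply. The genes lie side by side on the minus strand of chromosome 4, at 136895917-136898803, 136880129-136886187 and 136889804-136893065, and nothing in their 31-base words is shared with another gene. C1qb was at 44.3, 27.0 and 36.2 CPM in Il10KO colon at week 6, at 50.5, 74.5 and 53.7 at week 10, at 48.0, 51.5 and 41.7 at week 12, and at 34.96, 104.5 and 92.5 at week 14. In CPM all of week 10 lay above week 6, week 12 overlapped with it, and week 14 was split between replicate 1 and the others. In TPM week 10 overlapped with week 6. Week 14 replicate 1 was then the highest of its group, at 56.2 TPM against 43.1 and 51.6.

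The log2 fold changes of C1qb were 0.73 ± 0.43, 0.39 ± 0.43 and 1.11 ± 0.44 at weeks 10, 12 and 14 (adjusted p = 0.195, 0.504 and 0.0588 by edgeR). C1qa, at 53.4, 28.8 and 46.1 CPM at week 6 and 44.6, 114 and 107 CPM at week 14, had 1.05 ± 0.50 at week 14 (0.0985). C1qc, at 44.0, 26.2 and 38.9 CPM at week 6 and 35.2, 76.2 and 70.7 CPM at week 14, had 0.74 ± 0.39 (0.133). None passed. Without week 14 replicate 1 all 3 did, at 1.46 ± 0.39 (0.00362) for C1qb, 1.37 ± 0.49 (0.0204) for C1qa and 1.01 ± 0.38 (0.0268) for C1qc. In that fit 11335 of 16321 genes passed, so calls of members are near the share of all genes.

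The other values of the 3 chains overlapped with week 6. At week 8 C1qa was at 52.8, 105 and 17.1 CPM, C1qb at 44.98, 67.3 and 18.3 and C1qc at 48.0, 62.4 and 17.9. Replicate 2 was the highest and replicate 3 the lowest for each. C1qa was at 46.3, 82.8 and 60.2 CPM at week 10 and at 76.9, 71.5 and 51.5 at week 12, and C1qc at 39.8, 54.5 and 42.2 and at 44.2, 40.6 and 33.7. In WT colon C1qa had 50.5, 71.4 and 45.2, C1qb 27.3, 49.4 and 29.4 and C1qc 28.5, 48.4 and 27.6 CPM.

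The direction of the C1q genes depended on the scale. At week 14 the difference of mean log2 values from week 6 was 0.97 in TMM-scaled CPM, 0.40 in CPM by library size alone and -0.30 in TPM for C1qb, and 0.97, 0.40 and -0.31 for C1qa and 0.69, 0.11 and -0.59 for C1qc. The median over all genes shifted by -0.07, -0.52 and -0.88 on the same scales, so relative to it the differences of C1qb were 1.05, 0.93 and 0.58, all above 0. At week 10 C1qa and C1qc, and at week 12 C1qb and C1qc, were also above 0 in TMM-scaled CPM and below 0 in TPM, as was Cd68 at week 14. At week 10 the all-gene median shifted by -0.01, -0.24 and -0.41, and at week 12 by -0.001, -0.13 and -0.43. Ly6c2 and Ccr2 were higher, and Csf1r, Adgre1 and Cx3cr1 lower, on all 3 scales at weeks 10, 12 and 14, and limma on log2(TPM + 1) called Csf1r, Adgre1 and Cx3cr1 lower at week 14 (-2.34, -1.30 and -1.90, adjusted p = 0.0127, 0.0392 and 0.0191). That fit called 9778 of 16300 genes, and relative to the all-gene median in TPM the differences of the 3 genes were -1.63, -0.58 and -1.30. In that fit Ly6c2 and Ccr2 were 0.84 and 0.58 at week 14 and did not pass (adjusted p = 0.0657 and 0.280).

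**Figure D4:**
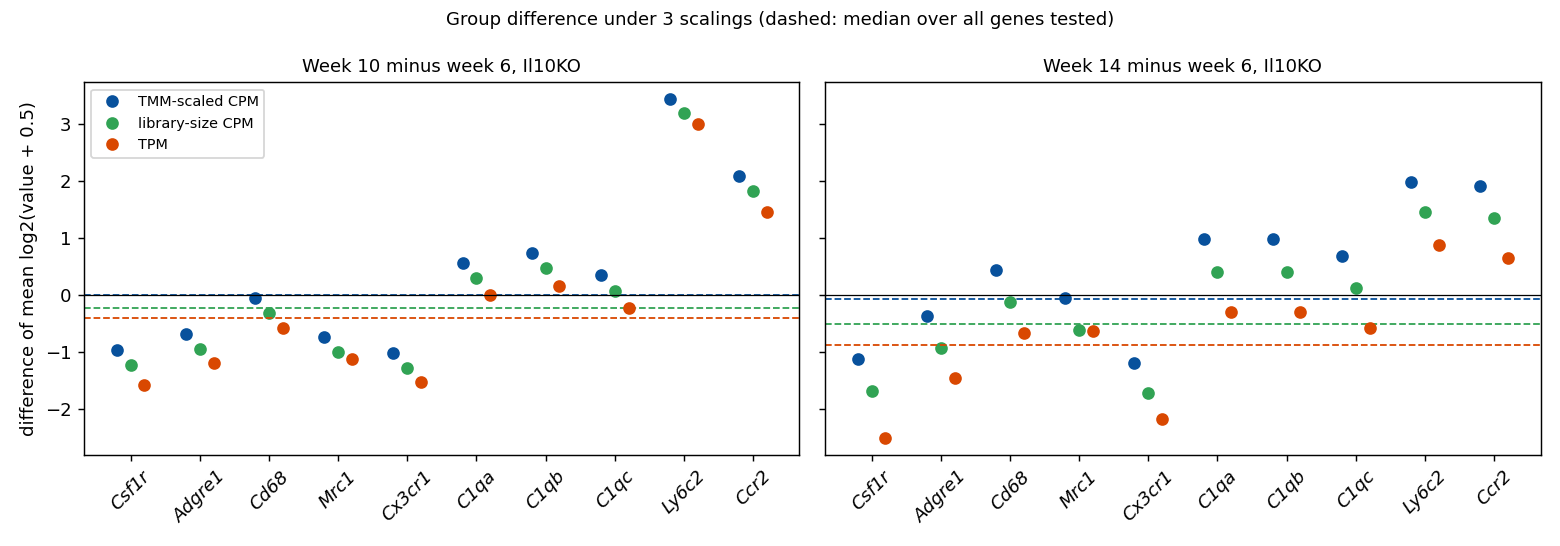
Difference of mean log2(value + 0.5) between week 10 or 14 and week 6 in Il10KO colon (vertical axis) for each gene, on 3 scales, with the median of all genes tested on each scale as a dashed line. At week 14 the C1q genes lie above 0 in CPM and below 0 in TPM, and above the all-gene median on each scale.

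Ratios of 2 genes within a library do not depend on the scaling between libraries. C1qb had 0.543, 0.530 and 0.502 estimated counts per Csf1r count in the Il10KO libraries of week 6. It had 0.637, 1.14 and 0.716 in the week 8 libraries, and 1.59, 2.51 and 1.30 in those of week 10. The ratio was 1.95, 2.02 and 1.23 in the week 12 libraries and 0.562, 5.22 and 4.10 in those of week 14. WT colon had 0.549, 0.633 and 0.416. All libraries of weeks 8, 10, 12 and 14 lay above all 3 of Il10KO week 6, and replicate 1 of week 14 by the least, which was below WT replicate 2. As these are counts, not corrected for length, the ratios show change between groups and not which gene is more abundant.

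The ratios of the mature macrophage receptors to Csf1r moved less up to week 12. Adgre1 had 0.257, 0.279 and 0.226 counts per Csf1r count at week 6 in Il10KO colon and between 0.274 and 0.327 at weeks 10 and 12. All week 12 libraries, at 0.307, 0.296 and 0.314, lay above week 6, and week 8 had 0.314, 0.359 and 0.233. At week 14 Adgre1 had 0.250, 0.667 and 0.463, so replicates 2 and 3 stood above every other library. Mrc1 had 0.347 to 0.462 at week 6, 0.317 to 0.711 at week 10, 0.405 to 0.503 at week 12, and 0.419, 1.199 and 1.29 at week 14. Cx3cr1 had 0.291 to 0.364 at week 6, 0.183 to 0.438 at week 10, 0.357 to 0.496 at week 12 and 0.301 to 0.330 at week 14. Ly6c2 per Csf1r count was 0.0282 to 0.0382 at week 6, 0.0642 to 0.462 at week 8, 0.430 to 1.35 at week 10, 0.225 to 0.467 at week 12, and 0.0551, 0.829 and 0.783 at week 14. No library from week 8 on overlapped with week 6 in this last ratio, and WT colon was lower still at 0.00602 to 0.0140. The ratios of week 14 replicates 2 and 3 share the uncertainty of Csf1r given above.

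**Figure D5:**
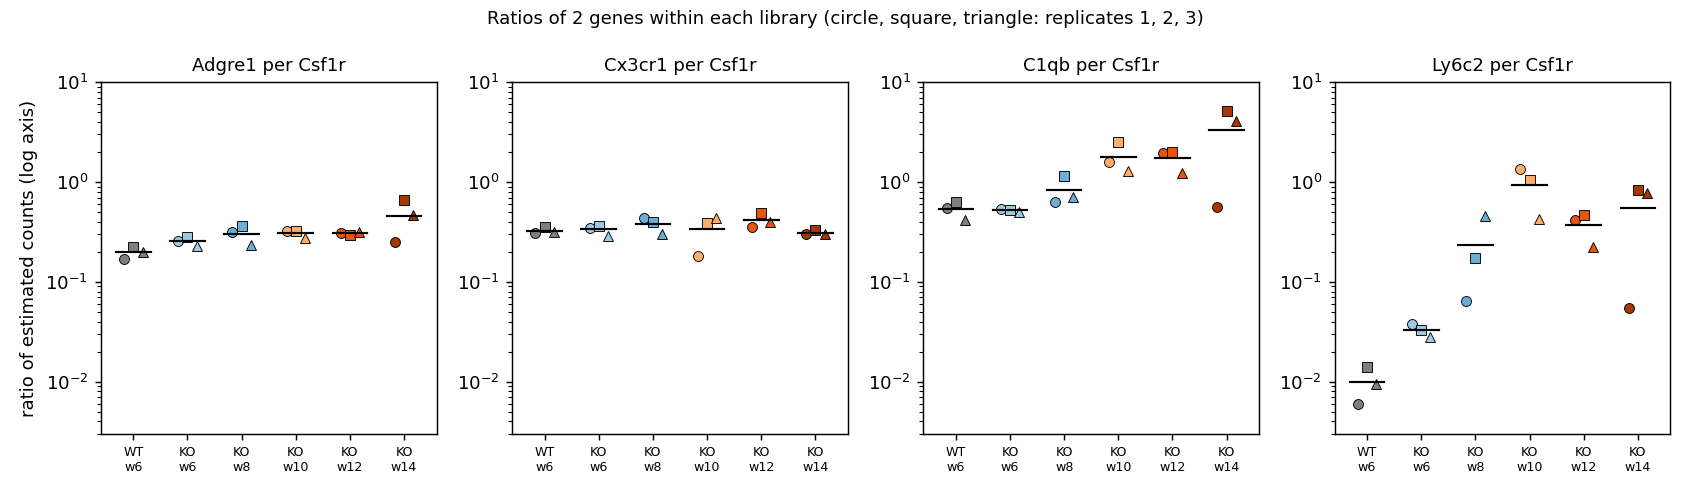
Estimated counts of Adgre1, Cx3cr1, C1qb and Ly6c2 per estimated count of Csf1r in each library (vertical axis, logarithmic), by group. Adgre1 and Cx3cr1 per Csf1r change less than C1qb and Ly6c2 at weeks 10 and 12. All week 12 libraries of Adgre1 lie above Il10KO week 6, and the week 10 libraries of Cx3cr1 lie on both sides of it. C1qb and Ly6c2 per Csf1r are above the Il10KO week 6 libraries in every later library.

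The C1q genes moved together. Pearson's r of log2 CPM over the 18 libraries, which share groups and so are a description only, was 0.96 for C1qb with C1qc, 0.93 for C1qa with C1qc and 0.92 for C1qa with C1qb. After C1qc, the gene most like C1qb among 12726 eligible genes was Spi1 (0.93), which encodes the myeloid transcription factor PU.1, and Lsp1, a leukocyte actin-binding protein, was the second most like C1qa (0.93) and the third most like C1qc (0.92). As PU.1 is known to bind a GAGGAA core, the RefSeq promoters (GRCm38.p6) were searched for these letters on both strands in the 250 bases before the start site. The bases of C1qb and C1qc that lie outside annotated exons are shown as an example, on the gene's strand, with the motif or its reverse complement in capitals.
C1qb, chr4:136886201-136886450: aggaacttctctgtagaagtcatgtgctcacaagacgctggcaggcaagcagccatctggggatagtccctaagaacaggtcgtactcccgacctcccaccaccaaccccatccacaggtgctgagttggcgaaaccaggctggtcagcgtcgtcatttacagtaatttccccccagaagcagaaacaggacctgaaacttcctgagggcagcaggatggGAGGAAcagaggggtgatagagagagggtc
C1qc, chr4:136893066-136893164: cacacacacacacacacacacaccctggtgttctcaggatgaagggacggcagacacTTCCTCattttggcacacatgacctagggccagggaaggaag
The motif begins 30 bases before the RefSeq start of C1qb and 193 bases before that of C1qc. It was in 5 of the 7 members with a promoter in the table (Cd68, Mrc1, C1qb, C1qc and Ly6c2, not Cx3cr1 or Ccr2), against 23.36% of 32536 promoter sequences. For Cx3cr1 and Ccr2, 250 and 233 of the 250 bases searched lay in annotated exons, so little or no sequence outside exons was searched there. Ly6c2 was searched before its start sites 75111971 and 75111937, whereas the share of all promoters counts single sequences. The difference between the shares was not tested. TTCNNNGAA, letters bound by STAT factors, was in none of the 7, against 7.04% of all. An interferon-regulatory factor motif was searched as well and was in none of the 7, against 2.98% of all. A match is a description of the letters and not a binding site.

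The genes most like the other members fell in different groups, with r over the same 18 libraries. Csf1r was most like Tgfbr2 (0.97), a TGF-beta receptor, Il6ra (0.96) and Scube1 (0.96), and Cx3cr1 most like Gpr153 (0.96), the macrophage scavenger receptor Stab1 (0.96) and Gna12 (0.95). Adgre1 was most like Srpx2 (0.90), Efemp1 (0.88) and Adamdec1 (0.87), and Mrc1 most like Sod3 (0.86), Tmem176a (0.85) and the stromal proteoglycan Dcn (0.84). Cd68 was most like the endosomal RNA sensor Tlr7 (0.92), Havcr2 (0.82) and Hacd4 (0.81). Ly6c2 was most like the interferon-inducible chemokine Cxcl9 (0.97), Mtfr2 (0.96) and Clca4b (0.95), and Ccr2 most like Csf3r (0.97), the receptor for the granulocyte growth factor G-CSF, Pirb (0.96) and Gpr141 (0.96). Between members, Csf1r and Cx3cr1 had r = 0.91, Ly6c2 and Ccr2 0.82, and Csf1r and Ly6c2 -0.70.

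Other genes of mononuclear phagocytes were counted by list. Over all genes, 14.6%, 1.36% and 24.5% were called higher at weeks 10, 12 and 14, and 9.48%, 0.491% and 8.56% lower. Of 22 resident macrophage genes, none rose and 7 fell at week 10, with a list median of -1.20 (log2) against 0.01 over all genes (0.003 at week 12 and -0.06 at week 14). Their summed level at week 10 was 290 CPM in replicate 1 and 792 and 660 in replicates 2 and 3, against 729 to 1128 at week 6 in Il10KO colon. The sum of 5 smooth muscle genes was also lowest in week 10 replicate 1, at 902 CPM against 3148 and 3992 in replicates 2 and 3. At week 10 Fcrls, a Fc receptor-like protein, fell by 3.27 ± 0.81 and the hyaluronan receptor Lyve1 by 1.45 ± 0.37 (adjusted p = 0.0158 and 0.0172 by edgeR). The efferocytosis receptor Mertk fell by 1.70 ± 0.44 (0.0178). Of 6 lymphatic endothelium genes 1 fell at week 10, with a list median of -1.44. The part of such cells in the fall of Lyve1 was not tested. At week 12 none of the 22 passed, and F13a1, a clotting factor subunit, had the smallest p (-1.80 ± 0.54, adjusted p = 0.0846). At week 14, 5 rose and 1 fell, with a median of -0.41 against -0.06 over all genes, and these counts are near the 24.5% and 8.56% of all genes called. The risers included Cbr2, a carbonyl reductase (2.29 ± 0.47), Ms4a7 (2.60 ± 0.62) and the lipid receptor Trem2 (2.44 ± 0.59), with adjusted p of 0.00616, 0.00763 and 0.00816.

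Of 18 genes shared by monocytes and macrophages, 6 rose at week 10, none at week 12 and 10 at week 14, and none fell, with medians of 1.36, 0.50 and 1.26. At week 14 their summed level was 1148 CPM in replicate 1, against 851 to 1016 at week 6, and 8499 and 6671 in replicates 2 and 3. The endotoxin co-receptor Cd14 rose by 2.89 ± 0.57, the high-affinity IgG receptor Fcgr1 by 2.56 ± 0.63 and the scavenger receptor Msr1 by 1.69 ± 0.51 at week 10 (adjusted p = 0.00667, 0.0152 and 0.0307 by edgeR). At week 14 Cd14 rose by 3.20 ± 0.58, and the signalling adaptors Fcer1g and Tyrobp by 3.17 ± 0.72 and 3.57 ± 0.83 (adjusted p = 0.00616, 0.00661 and 0.00707). Cd14 was also nearest to passing at week 12, at 1.67 ± 0.55 (0.0940).

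Of 23 inflammatory monocyte genes, 17 rose and 1 fell at week 10, 1 rose and 1 fell at week 12, and 18 rose at week 14, with medians of 4.19, 1.87 and 4.55. Their summed level at week 14 was 855 CPM in replicate 1, near the 713 to 815 of week 6, and 19640 and 13690 in replicates 2 and 3 of lower RIN. Tnf, the cytokine TNF, rose by 6.17 ± 1.00, 4.88 ± 0.95 and 6.09 ± 1.00 at the 3 ages (adjusted p = 0.00304, 0.0313 and 0.00616 by edgeR). The IgG receptor Fcgr4 rose by 3.79 ± 0.70 at week 10 and 3.62 ± 0.70 at week 14 (0.00477 and 0.00616), and the secreted phosphoprotein Spp1 by 3.59 ± 0.77 at week 10 (0.00943). Vcan, a proteoglycan also made by stromal cells, fell at week 12 by 1.85 ± 0.38 (0.0348). Plac8 rose at week 14 by 4.55 ± 0.85 (0.00616), and gut epithelium is also known to make it. It stood at 449 ± 76.1 CPM (SD, n = 3) at week 6.

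Of 8 tested chemokines and growth factors of these cells (Csf2 was not in the table), 4 rose at week 10, 1 at week 12 and 4 at week 14. At week 14 their summed level was 136 CPM in replicate 1, within the 121.5 to 137 of week 6, and 1709 and 1053 in replicates 2 and 3. Ccl8, Ccl2 and Ccl7, ligands of CCR2 and related receptors, rose at week 10 by 6.67 ± 1.25, 4.98 ± 1.13 and 7.26 ± 1.66 (adjusted p = 0.00493, 0.0118 and 0.0121 by edgeR). At week 14 they rose by 7.92 ± 1.32, 5.75 ± 1.17 and 8.86 ± 1.78 (0.00616 for each), though Ccl2 and Ccl7 overlapped with week 6. Ccl8 alone rose at week 12, by 5.63 ± 1.19 (0.0369).

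Of 14 transcription factors, 2 rose and 1 fell at week 10, none passed at week 12 and 4 rose at week 14. Over all genes, 14.6% were called higher and 9.48% lower at week 10, and 24.5% higher at week 14. The factor counts are near these shares, and the 7 patrolling monocyte genes below are too few to tell from them. Irf8, needed for monocyte development, rose by 2.10 ± 0.41 and Cebpb by 1.36 ± 0.34 at week 10, and Zeb2, a factor of tissue macrophage identity, fell by 1.05 ± 0.36 (adjusted p = 0.00615, 0.0154 and 0.0483 by edgeR). Irf8 was nearest to passing at week 12 (1.41 ± 0.40, 0.0759). At week 14 Nr1h3, the oxysterol receptor LXR-alpha, rose by 2.12 ± 0.46, Cebpb by 1.44 ± 0.34 and Id3 by 1.73 ± 0.41 (0.00616, 0.00716 and 0.00767). Of 7 patrolling monocyte genes 2 rose at week 10, Pglyrp1 by 2.18 ± 0.64 and the integrin chain Itgal by 0.99 ± 0.31 (0.0287 and 0.0357), and 1 at week 14, Pglyrp1 by 3.43 ± 0.67 (0.00616). Pglyrp1, an antibacterial protein also of neutrophils, had the smallest p at week 12 (1.70 ± 0.63, 0.109).

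Of 7 partners of C1q in the classical pathway, C2, the second component, rose at week 10 by 2.79 ± 0.54 (adjusted p = 0.00600 by edgeR), and Cd93, a receptor of endothelium and myeloid cells, fell by 1.59 ± 0.51 at week 10 and 1.42 ± 0.50 at week 14 (0.0366 and 0.0431). So 1 of 7 rose and 1 fell at week 10 and 1 fell at week 14, near the 14.6%, 9.48% and 8.56% of all genes. At week 12 C2 was at 1.89 ± 0.53 (0.0718). At week 8 none of these 7 lists had a called gene, and the smallest p of each was that of Cbr2 (1.08 ± 0.45), Cd14 (1.14 ± 0.54), Tnf (3.795 ± 0.92), Pglyrp1 (1.36 ± 0.62), Ccl8 (4.45 ± 1.13), Irf8 (1.26 ± 0.40) and C2 (2.27 ± 0.53), with adjusted p from 0.133 to 0.706. In Il10KO against WT colon at week 6 none was called either, and Igf1 (0.78 ± 0.46), C3ar1 (0.40 ± 0.41), Vcan (0.45 ± 0.36), Eno3 (-0.71 ± 0.46), Ccl7 (1.10 ± 1.47), Id3 (-0.39 ± 0.40) and C3 (0.39 ± 0.38) had the smallest p of their lists (adjusted p = 1 for each). DESeq2 and limma on log2 TPM also called no member in that comparison. Limma's voom with a weight per group called Ly6c2 higher, but it called genes outside the members too. By edgeR 1 member, Ly6c2, had an unadjusted p below 0.05.

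Markers of other cells moved at the same ages. Of 9 neutrophil genes 8 rose at week 10, 1 at week 12 and 9 at week 14, and their summed level was 292 to 325 CPM in week 6 Il10KO colon, 1378 to 6339 at week 10, 825 to 934 at week 12 and 563 to 17120 at week 14. Of 6 fibroblast genes 5 fell at week 10, 2 at week 12 and 3 at week 14, and their summed level was 2069 to 3122 CPM at week 6, 700 to 1214 at week 10, 626 to 694 at week 12 and 887 to 1497 at week 14. Of 8 T cell genes 4, 1 and 6 rose and of 6 NK cell genes 4, 2 and 3. Of 10 dendritic cell genes 1 rose, at week 14, and their sum kept to 30.2 to 74.5 CPM in all 18 libraries. The part of a changed mix of cells in the member values was not tested.

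Lipocalin, a neutrophil and epithelial protein used as a marker of gut inflammation, was labelled for all 15 Il10KO mice. Among mice of the same age, the slope of each member on log10 lipocalin did not pass the test, and 0% of 16182 genes did. The slopes ran from -0.98 ± 0.95 log2 units per 10-fold lipocalin for Cx3cr1 to 1.29 ± 1.13 for Ccr2, with Ly6c2 at 0.89 ± 0.94 (adjusted p = 0.889 by edgeR for each of these 3). No member had an unadjusted p below 0.05, and DESeq2 and limma called none.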

How the data were processed

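Poly(A) RNA of distal colon from 18 mice was sequenced. Per the submitters' processing notes, FastQC, kallisto and mm10 were used, with versions not given in the sources used here. The gene table holds estimated counts (expected counts) that the authors deposited for 16321 genes, none with a sum under 50. The TPM values are those of a second gene table that the authors deposited. They also deposited transcript tables per library with estimated counts and TPM. Transcripts were assigned to genes through GENCODE M21 (97.68% of transcripts matched). Gene counts matched the transcript sums within 5 counts for 97.97% of 16075 genes.

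Counts were rounded and tested in R 4.3.3 with edgeR 4.0.16 (TMM, filterByExpr, quasi-likelihood F-test over 6 group means, Benjamini-Hochberg threshold of 0.05), in 16300 genes, and the procedure was tested on simulated data. Alternatives used DESeq2 1.42.0, limma 3.58.1, other scalings, RIN, cage, and each library left out. CPM is from TMM-scaled counts. Named were all 10 members, up to 3 called genes of smallest p per list (or the smallest p where none was called), the 3 genes most like each member with a mean log2 CPM of at least 1, Ly6c1 and Il10. Members and lists were chosen with earlier results of these data known. Depth was 26495521 to 35497101 counts per library.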

Additional observations from a re-analysis of the deposited data

Results flagged for a closer look

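The transcript tables, which the comparisons of gene counts do not use, held shares of a gene's estimated counts on 1 transcript that exceeded every WT library by over 25 percentage points, among genes with at least 100 counts in the library. For Csf1r the share on the 4701-base transcript was 100% in week 14 replicate 2 and 100% in week 14 replicate 3, against 7.39% at most in WT. For Mrc1 the share on the retained-intron transcript was 54.9% and 49.3% in the same libraries, against 0.233% at most in WT. For Cx3cr1 the share on the 3753-base transcript ENSMUST00000064165.4 was 88.4% and 59.0% in week 10 replicates 1 and 2 and 100% and 95.7% in week 14 replicates 2 and 3, against 33.2% at most in WT. These differences between libraries were not tested.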

How the results depend on the processing

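Over 2979 alternative values of the members' log2 fold changes, 2879 kept their side of the threshold, 28 lost the call and 72 gained one. Most of the 2979 had no call to lose. The 28 losses could come only from the 4 main calls, Ly6c2 and Ccr2 at weeks 10 and 14. They are to be read against the alternatives of these 4 values alone. No value with a call reversed its direction. Among the 2879 were 134 values without a call that changed sign, where the main log2 fold change was at most 1.14 in size. The number of members called, of 10, moved as follows. In Il10KO against WT it was 1 with voom and a weight per group. That fit also called genes outside the members, so this call is not specific to Ly6c2. At week 8 it was 1 with RIN as a covariate, with WT as the reference (chosen after seeing the data) and with DESeq2, which called 193, 78 and 226 of all genes. At week 10 it was 0 with cage as a factor, 5 with only the compared groups, 1 with limma on log2(TPM + 1) or log2(TPM + 0.1), which lost Ccr2, and 3 (Csf1r lower added) with RIN as a covariate, without week 14 or without libraries of RIN under 7. At week 12 it was 3 with RIN as a covariate, 7 with only the compared groups, 4 without week 14, 4 without libraries of RIN under 7, 1 with WT as the reference, 6 with voom and 3 with DESeq2. At week 12 calls over all genes rose too, from 301 to 5751 with RIN as a covariate and 9186 of 15564 with only the compared groups. They were 6688 of 16176 without week 14 and 10096 of 16300 with voom. At week 10 they moved from 3917 of 16300 to 2 of 16182 with cage, 6177 of 15406 with only the compared groups and 7584 with RIN as a covariate. Without week 14 they were 8354 of 16176, and without libraries of RIN under 7, 8384 of 16319. At week 14 the number of members called was 1 by library size, and 0 with RIN as a covariate, cage, only the compared groups, voom, or without libraries of RIN under 7. It was 3 with DESeq2 (C1qb added) and 3 with limma at either pseudocount (Adgre1, Csf1r and Cx3cr1 lower, with Ly6c2 and Ccr2 lost). From week 8 to 10 it was 1 with RIN as a covariate, without week 14, without libraries of RIN under 7 and with DESeq2, and from week 10 to 12 it was 1 with the first 3 of these. Across ages it was 3 with transcript sums, RIN as a covariate, without week 14 or without libraries of RIN under 7, 0 with cage, 2 with limma at either pseudocount, and 4 with voom or DESeq2. Calls over all genes moved with the setting as well. Their numbers are given here only for some settings of weeks 8, 10 and 12. The counts of members are therefore not read as results about the members. The cause was not tested.

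With each library left out in turn the counts ran from 0 to 0 for Il10KO against WT, 0 to 1 at week 8, 1 to 3 at week 10, 0 to 4 at week 12 and 1 to 7 at week 14. They ran from 0 to 1 from week 8 to 10 and from week 10 to 12, 0 to 3 from week 12 to 14, 1 to 6 across ages and 0 to 0 for lipocalin. Where the count moved, the highest was without week 14 replicate 1. Calls over all genes rose there too, from 11 to 185 at week 8 and from 3917 to 8268 at week 10. Without 1 of the Il10KO week 6 libraries, calls over all genes at week 10 fell to between 767 and 1103. The week 10 count was 1 without any 1 Il10KO week 6 library or without week 10 replicate 1, and the week 14 count was 1 without any 1 Il10KO week 6 library or without week 14 replicate 2 or 3, and Ccr2 was the gene lost each time. Across ages the count was 2 without week 8 replicate 1 or 2 or week 10 replicate 3 and 3 without week 8 replicate 3, when week 14 had 4, and week 12 had 1 without week 8 replicate 1.

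The replicate numbers were treated as names only in the main test. Over 45 pairs with the same number the correlation of deviations from group means was -0.62 to 0.48, and 13 were over 0.1. Pairs with different numbers were not compared, so these values cannot decide whether the numbers pair the mice. With the replicate block 2 members were called at week 10, 2 at week 14 and 1 across ages, the same numbers as without it. Without strand information, and with 31-base words shared between Ly6c1 and Ly6c2, depth does not settle the split of reads between such genes.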
